A study of Mus musculus with 6 samples.

Results

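The transcripts described here encode mouse RNA-processing factors: splicing factors, RNA helicases of the DEAD-box and DEAH-box families, 3′ end cleavage factors, small RNA silencing proteins, decay factors, translation initiation factors and sequence-specific regulators. Members were chosen by gene name, as every listed gene with a symbol of a family of RNA factors, among them Rbm, Srrm, Srsf, Ddx, Dhx, Prpf, Sf3a, Sf3b, Snrnp, Hnrnp, Cpsf, Cstf, Tnrc6, Ago, Xrn, Cnot, Upf, Smg, Eif4, Larp, Celf and Mbnl, or named Son, Pcf11, Dicer1 or Drosha, with Rbm15b left out. This gave 36 of the 2652 genes in the table. METTL3 is the catalytic subunit of the enzyme complex that writes N6-methyladenosine (m6A) on mRNA, and METTL3-RIP-seq sequences the RNA that an anti-METTL3 antibody pulls down from a lysate. Both groups, 3 METTL3-RIP and 3 input libraries, came from natural killer (NK) cells sorted from the spleens of wild-type (WT) C57BL/6 mice, which according to the methods had received the pLIVE-IL-15 plasmid by hydrodynamic injection a month earlier. Input was a minor part of the lysate kept before the antibody was added. No mock immunoprecipitation was analysed here, and no source says whether the 3 libraries of a group came from separate mice or pools, so p-values measure the spread between libraries, which may be technical.

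The table holds genes that had been chosen as higher in METTL3-RIP than in input, so the direction of each difference below was fixed by that choice. Library totals recovered from the values were 9401509 to 11809744 reads in METTL3-RIP and 14710607 to 15992386 reads in input. None of the 10 NK cell markers looked up, and none of all 23 markers of NK, T, B, myeloid and erythroid cells, is listed, so the cell type could not be checked against markers in this table. Library values of genes that are not listed were not analysed here, and only their annotation and sequence were used. In bulk RNA such as this, fewer cells of a type and less RNA per cell cannot be told apart.

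A messenger RNA is spliced by the spliceosome, whose rearrangements are driven by ATP-dependent helicases, and it is cleaved and polyadenylated at its 3′ end. In the cytoplasm its cap and poly(A) tail recruit translation initiation factors, while deadenylases, the nonsense-mediated decay machinery and Argonaute complexes loaded with microRNAs shorten its life. The m6A mark is placed mostly near stop codons and in unusually long internal exons, and it is known to influence splicing, translation and decay. A protein that handles RNA is itself encoded by an mRNA that these pathways act on, and it is the mRNAs of such proteins whose recovery with METTL3 is described below.

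GGACT, a common form of the sequence in which m6A is found, was searched on the sense strand of the principal GENCODE M21 transcript of each gene, and no other motif was searched. All 36 transcripts held at least 1 copy, from 1 in Dhx57 to 23 in Tnrc6b, with a median of 7 copies and 1.21 copies per kilobase. The median density was 1.12 per kilobase over listed protein-coding genes, 0.836 over the 198 protein-coding genes of the same names that are not listed and 1.02 over all protein-coding genes. Within 50 nt of the end of the stop codon, a window of 101 nt, 7 of 36 members held a copy (19.4%), against 18 of the 198 unlisted genes of the same names (9.09%), 259 of 1891 listed protein-coding genes (13.7%) and 2796 of 21695 protein-coding genes (12.9%). A match describes the sequence only, and no m6A measurement was used.

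Windows of 6 of these are shown because they place the letters where the mark is usually found. They are 21-nt windows of the GRCm38 genome, written 5′ to 3′ on the transcript strand with the motif in capitals, at chr8:109548395-109548415 (minus strand) for Dhx38, chr12:104691573-104691593 (minus) for Dicer1, chr16:20692440-20692460 (plus) for Eif4g1, chr19:4765349-4765369 (plus) for Rbm4b, chr15:99316569-99316589 (plus) for Prpf40b and chr2:127240237-127240257 (plus) for Snrnp200. That of Dhx38 is coding, with the motif centre 6 nt before the last base of the stop codon (a distance of -6 nt). The other 5 lie in the 3′ UTR, 10 nt (Dicer1), 19 nt (Eif4g1), 25 nt (Rbm4b), 26 nt (Prpf40b) and 35 nt (Snrnp200) after it. All 6 are in the last exon.
Dhx38: cccgctttGGACTgtgagctg
Dicer1: aagcttccGGACTcacaggcg
Eif4g1: ggggcaggGGACTtggagcca
Rbm4b: ataattgcGGACTgaaccctc
Prpf40b: tctgccttGGACTtcgtgagg
Snrnp200: aggaatgtGGACTaggtctgt

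Srrm2 and Son are shown for the other setting, a long internal exon. Exon 11 of 15 of Srrm2 is 6569 nt long and held 6 of its 7 copies, and exon 3 of 12 of Son is 5970 nt long and held all 15 of its copies. The copies nearest the stop codon lie in those exons, at chr17:23819825-23819845 (plus) in Srrm2 and at chr16:91659887-91659907 (plus) in Son, with distances to the last base of the stop codon of -2372 and -1804 nt.
Srrm2: cagatccaGGACTccaccagt
Son: aagaaaagGGACTcttcatta

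All 36 transcripts were higher in METTL3-RIP than in input by limma on log2(RPKM + 1) with Benjamini-Hochberg adjustment over all listed genes, where RPKM scales the read number of a gene to its length in kilobases of exon and to the size of the library. With replicate number as a block all 36 passed as well. The same tests were passed by 99.9% of all listed genes and, with the block, by 99.7%, so the counts say nothing particular to these members. In all 36 members the lowest METTL3-RIP value lay above the highest input value, as it did in 99.8% of listed genes. On this scale, which understates the change of low genes, 32 members reached a log2 difference of 1, against 75.0% of listed genes. Their median log2 fold change was 2.64, and that of all listed genes was 1.72. After each library was centred on its median, which removes the shift shared by listed genes, 28 members were higher and 7 lower (39.4% and 42.2% of listed genes), and after quantile normalization 1 was higher and 6 were lower (6.41% and 5.73%). The 7 that centring turned negative, Rbm4b, Dhx35, Dhx33, Ago3, Prpf40b, Celf3 and Ago4, are the 7 members with the lowest METTL3-RIP levels. Centring subtracts a common shift on the log2(RPKM + 1) scale, where genes of low level can show only small differences. A negative value therefore does not by itself mean a lower ratio to input. That of Rbm4b, 17.4, lay above the median of 14.4 over listed genes, while Dhx35 (10.7), Dhx33 (10.6) and Ago3 (10.6) lay below it. Prpf40b had 1 input read, and Celf3 and Ago4 had 0. A positive value likewise does not by itself mean a higher ratio. Ago2 (0.57) and Dhx38 (1.26), for example, had ratios of 9.35 and 9.87. The same limit applies to the centred values of each role below.

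Members had higher METTL3-RIP levels than most listed genes. Their mean METTL3-RIP RPKM had a median of 8.92, against 3.04 over all listed genes, and 29 of 36 lay above the listed median and 23 above the upper quartile. Their input levels were higher as well, with a median of mean input RPKM of 0.759, against 0.190 over all listed genes. The median ratio of mean RPKM, METTL3-RIP over input, was 12.5 in the 34 members with input reads and 14.4 in the 2487 listed genes with input reads, and 14 of the 34 exceeded the listed median. Among genes with at least 50 input reads the medians were 12.5 (32 members) and 12.3 (1214 genes). No listed gene with input reads had a ratio below 9.14, and the lowest member, Ago2, stood at 9.35. The members took up 0.555% ± 0.0350 of each METTL3-RIP library and 0.0394% ± 0.00604 of each input library (SD, n = 3 each). As a share of the reads on listed genes they held 3.86% ± 0.0941 in METTL3-RIP and 4.13% ± 0.116 in input (SD, n = 3 each).

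**Figure D1:**
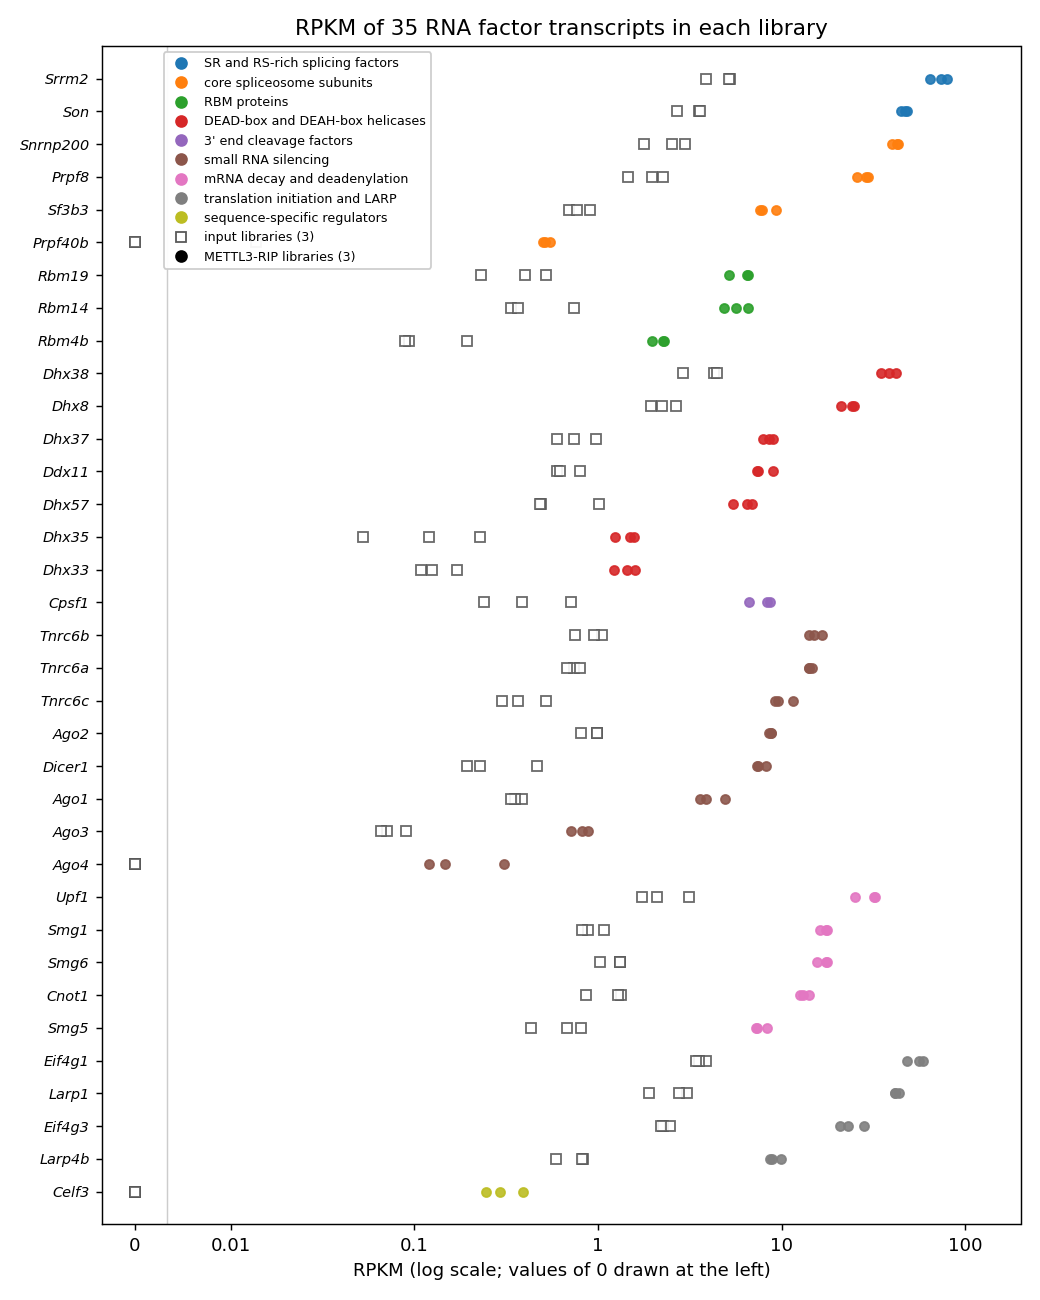
RPKM of 35 transcripts (horizontal log axis, values of 0 at the left edge) in each of the 3 METTL3-RIP libraries (filled circles, coloured by role) and the 3 input libraries (open squares), grouped by role. On the deposited scale no row overlaps between the groups, and mean METTL3-RIP levels run from 0.191 RPKM for Ago4 to 72.6 RPKM for Srrm2.

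Both listed members of the class rich in serine and arginine repeats, Srrm2 and Son, stood among the 3 highest members by METTL3-RIP level. They encode large proteins that organise nuclear speckles, the compartments where splicing factors are stored. Srrm2 had 73.6, 79.7 and 64.4 RPKM in METTL3-RIP replicates 1, 2 and 3 and 5.25, 5.20 and 3.86 RPKM in the input replicates, a log2 fold change of 3.68 ± 0.16 (SE, limma adjusted p = 1.6e-07). Son had 47.0, 48.0 and 44.8 RPKM in METTL3-RIP and 3.56, 3.59 and 2.70 RPKM in input, a log2 fold change of 3.48 ± 0.13 (SE, limma adjusted p = 1.4e-07). Ratios of mean RPKM were 15.2 and 14.2, and in both genes the ratio was highest in replicate pair 3. These 2 genes alone held 14.3% and 12.1% of the METTL3-RIP reads on members. Both stayed higher after median centring, by 1.92 and 1.72. Their ratios lay on either side of the listed median of 14.4, and both lay above the median of 12.3 over listed genes with at least 50 input reads. Neither passed the threshold after quantile normalization. None of the 11 annotated Srsf genes, the classical SR proteins, and none of the 20 Hnrnp genes is listed.

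Of the 4 core spliceosome genes, Snrnp200 and Prpf8 had high levels, Sf3b3 an intermediate one and Prpf40b almost no input reads. Snrnp200, the Brr2 helicase that unwinds the U4/U6 duplex, had 43.1, 42.3 and 39.7 RPKM in METTL3-RIP and 2.99, 2.54 and 1.78 RPKM in input, a log2 fold change of 3.65 ± 0.15 (SE, limma adjusted p = 1.5e-07). Prpf8, the large scaffold at the spliceosome's catalytic centre, had 29.6, 28.8 and 25.6 RPKM against 2.26, 1.98 and 1.46 RPKM, with a log2 fold change of 3.33 ± 0.14 (SE, limma adjusted p = 1.5e-07). Sf3b3, a subunit of the complex that binds the branch point, had 9.31, 7.63 and 7.78 RPKM against 0.902, 0.699 and 0.766 RPKM, with 2.37 ± 0.11 (SE, limma adjusted p = 1.9e-07). The ratio of mean RPKM was 17.1 for Snrnp200, 14.8 for Prpf8 and 10.4 for Sf3b3. Prpf40b, a homologue of a yeast U1 snRNP protein, had 0.516, 0.504 and 0.547 RPKM in METTL3-RIP, from 24, 24 and 32 reads, and 0, 0 and 0.0137 RPKM in input, from 1 read in replicate 3. Its pooled ratio of 119 has a 95% counting interval of 20.8 to 4766, which covers counting error only. On the deposited scale all 4 were higher, but after median centring 3 were higher and Prpf40b, at its low level, had a negative difference (-1.16), and after quantile normalization none passed.

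The 3 RBM genes, named for an RNA-recognition motif, had levels between 2.17 and 6.07 RPKM in METTL3-RIP. Rbm19, a factor of ribosome assembly, had 6.47, 6.60 and 5.15 RPKM in METTL3-RIP and 0.522, 0.403 and 0.232 RPKM in input, a log2 fold change of 2.35 ± 0.12 (SE, limma adjusted p = 3.9e-07). Rbm14, a coactivator and paraspeckle protein, had 6.53, 4.87 and 5.67 RPKM against 0.739, 0.336 and 0.365 RPKM, with 2.18 ± 0.14 (SE, limma adjusted p = 1.2e-06). Rbm4b, a regulator of alternative splicing, had 1.97, 2.27 and 2.28 RPKM against 0.0930, 0.0886 and 0.193 RPKM, with 1.50 ± 0.09 (SE, limma adjusted p = 5.7e-07). Input replicate 1 was the highest for Rbm14 and Rbm19, and input replicate 3 for Rbm4b, whose ratio was 17.4 over all libraries. Rbm19 and Rbm14 stayed higher after median centring, while the difference of Rbm4b, the lowest of the 3 in level, became negative (-0.26), and none of the 3 passed after quantile normalization. All 3 share exonic bases with another annotated gene: 30.8% of Rbm4b with the opposite-strand Gm37206, 14.6% of Rbm19 with the opposite-strand Gm10390, and 18.6% of Rbm14 with Gm21992 on its own strand plus 8.93% with Gm21844 on the other. Use of strand in counting is not given in the sources used here, so their values are uncertain. A further 35 annotated Rbm genes are not in the table.

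By group means the helicases had ratios below the listed median. Of 16 annotated Dhx genes 6 were listed, and of 37 Ddx genes only Ddx11 was listed. The ratio of mean RPKM lay between 9.46 (Dhx57) and 11.7 (Ddx11), against the listed median of 14.4, while ratios by pair ran from 6.42 (Dhx57) to 23.7 (Dhx35). No test of this difference was made. Dhx38 and Dhx8, the mammalian forms of the yeast splicing helicases Prp16 and Prp22, had the highest levels. Dhx38 had 38.5, 42.2 and 34.7 RPKM in METTL3-RIP and 4.31, 4.47 and 2.92 RPKM in input, a log2 fold change of 3.02 ± 0.16 (SE, limma adjusted p = 4.1e-07). Dhx8 had 24.2, 24.7 and 21.2 RPKM against 2.23, 2.67 and 1.95 RPKM, with 2.89 ± 0.13 (SE, limma adjusted p = 1.6e-07). Dhx37, which acts in small ribosomal subunit assembly, had 8.53, 9.03 and 7.92 RPKM against 0.745, 0.971 and 0.595 RPKM. Ddx11, a DNA helicase of sister chromatid cohesion and thus no RNA factor by its best-known role, had 7.49, 8.93 and 7.33 RPKM against 0.601, 0.799 and 0.623 RPKM, with 2.41 ± 0.11 (SE, limma adjusted p = 1.9e-07). Dhx57 had 6.47, 6.86 and 5.42 RPKM against 1.01, 0.493 and 0.482 RPKM, with 2.14 ± 0.15 (SE, limma adjusted p = 1.7e-06), and its pair 1 ratio of 6.42 was the lowest of any member. Input replicate 1 was also high for Dhx35, a spliceosome-associated helicase, whose 1.50, 1.57 and 1.24 RPKM in METTL3-RIP stood against 0.229, 0.121 and 0.0526 RPKM in input, from 18, 10 and 4 reads. Without that library the ratio of Dhx35 was 16.6, above the listed median, in place of 10.7. Dhx33, a helicase of ribosomal RNA synthesis, had 1.44, 1.60 and 1.22 RPKM against 0.170, 0.125 and 0.108 RPKM. All 7 were higher on the deposited scale, but after median centring 5 were higher while Dhx35 and Dhx33, the lowest in level, had negative differences (-0.65 and -0.67), and after quantile normalization Dhx38 and Dhx8 were lower (-0.45 and -0.38) and the other 5 did not pass.

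The small RNA silencing genes were the best covered, with 8 of 9 annotated genes listed: all 3 Tnrc6 genes, all 4 Ago genes and Dicer1. Over all genes that fit the name rule 15.4% were listed. The union of exons of these 8 ran from 6947 nt (Ago4) to 23677 nt (Tnrc6b), within the longest of 5 length classes of protein-coding genes (above 6514.8 nt). Drosha, which makes the first cut in microRNA maturation, has 5935 nt and is not listed. The part of length in this coverage was not tested. Dicer1, which makes the second cut, had 8.18, 7.36 and 7.46 RPKM in METTL3-RIP and 0.467, 0.229 and 0.193 RPKM in input, from 70, 36 and 28 input reads, with a log2 fold change of 2.75 ± 0.11 (SE, limma adjusted p = 1.5e-07). Its ratio of mean RPKM was 25.9, and by pair it was 17.5, 32.2 and 38.6. Among members with at least 50 input reads it stood with Tnrc6c (25.6) above the others over all libraries. This order changed with the library left out. Without input replicate 3 the ratio was 23.9 for Rbm4b, above Tnrc6c (22.9) and Dicer1 (22.1). The order of Dicer1 and Tnrc6c also changed with the library left out. The low pair 1 value goes with the high input replicate 1, while the METTL3-RIP values of Dicer1 lay between 7.36 and 8.18 RPKM.

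The GW182 proteins made from Tnrc6a, Tnrc6b and Tnrc6c link Argonaute to the deadenylases. Tnrc6b had 15.1, 16.7 and 14.0 RPKM in METTL3-RIP and 1.05, 0.953 and 0.749 RPKM in input, a log2 fold change of 3.08 ± 0.11 (SE, limma adjusted p = 1.4e-07). Tnrc6a had 14.1, 14.7 and 14.2 RPKM against 0.739, 0.797 and 0.674 RPKM, with 3.14 ± 0.09 (SE, limma adjusted p = 1.4e-07). Tnrc6c had 9.62, 11.6 and 9.21 RPKM against 0.522, 0.365 and 0.302 RPKM, with 2.99 ± 0.12 (SE, limma adjusted p = 1.4e-07). Levels of Tnrc6a and Tnrc6b overlapped in METTL3-RIP, and Tnrc6c lay below both. Ratios by pair were 19.0, 18.4 and 21 for Tnrc6a, 14.4, 17.5 and 18.7 for Tnrc6b, and 18.4, 31.7 and 30.5 for Tnrc6c. All 3 genes carry a long internal exon, of 2583, 2340 and 2601 nt in Tnrc6a, Tnrc6b and Tnrc6c.

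The Argonautes, which carry the guide RNA, had lower ratios than the Tnrc6 genes in every pair where both had input reads. Ago2, the family member that can slice its target, had 8.54, 8.71 and 8.79 RPKM in METTL3-RIP and 0.987, 0.990 and 0.808 RPKM in input, a log2 fold change of 2.33 ± 0.09 (SE, limma adjusted p = 1.4e-07) and pair ratios of 8.65, 8.79 and 10.9. Ago1 had 3.86, 4.93 and 3.61 RPKM against 0.388, 0.354 and 0.335 RPKM, with pair ratios of 9.95, 13.9 and 10.8. Ago3 had 0.712, 0.816 and 0.879 RPKM against 0.0713, 0.0906 and 0.0656 RPKM, with pair ratios of 9.99, 9.01 and 13.4. The highest Argonaute pair ratio, 13.9 in Ago1, thus lay below the lowest Tnrc6 pair ratio, 14.4 in Tnrc6b. The difference between the families was not tested, and 9.01% of the exonic 31-mers of Ago2 occur more than once in the genome. Ago4 had 0.306, 0.120 and 0.146 RPKM in METTL3-RIP, from 20, 8 and 12 reads, and 0 reads in each input library. Taking 3 reads as the upper limit that a count of 0 allows in each library, it was at least 6.76-fold higher. The order of the Argonautes by METTL3-RIP level was Ago2, Ago1, Ago3 and Ago4, with no overlap between neighbours. Of the 8 silencing genes, all higher on the deposited scale, 5 were higher after median centring, Ago3 and Ago4, the lowest in level, had negative differences (-1.02 and -1.51) and Ago1 did not pass (0.15, limma adjusted p = 0.15), and after quantile normalization Tnrc6c alone was higher (0.51, limma adjusted p = 0.025) while Ago2 and Ago3 were lower (-0.44 and -0.29).

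**Figure D2:**
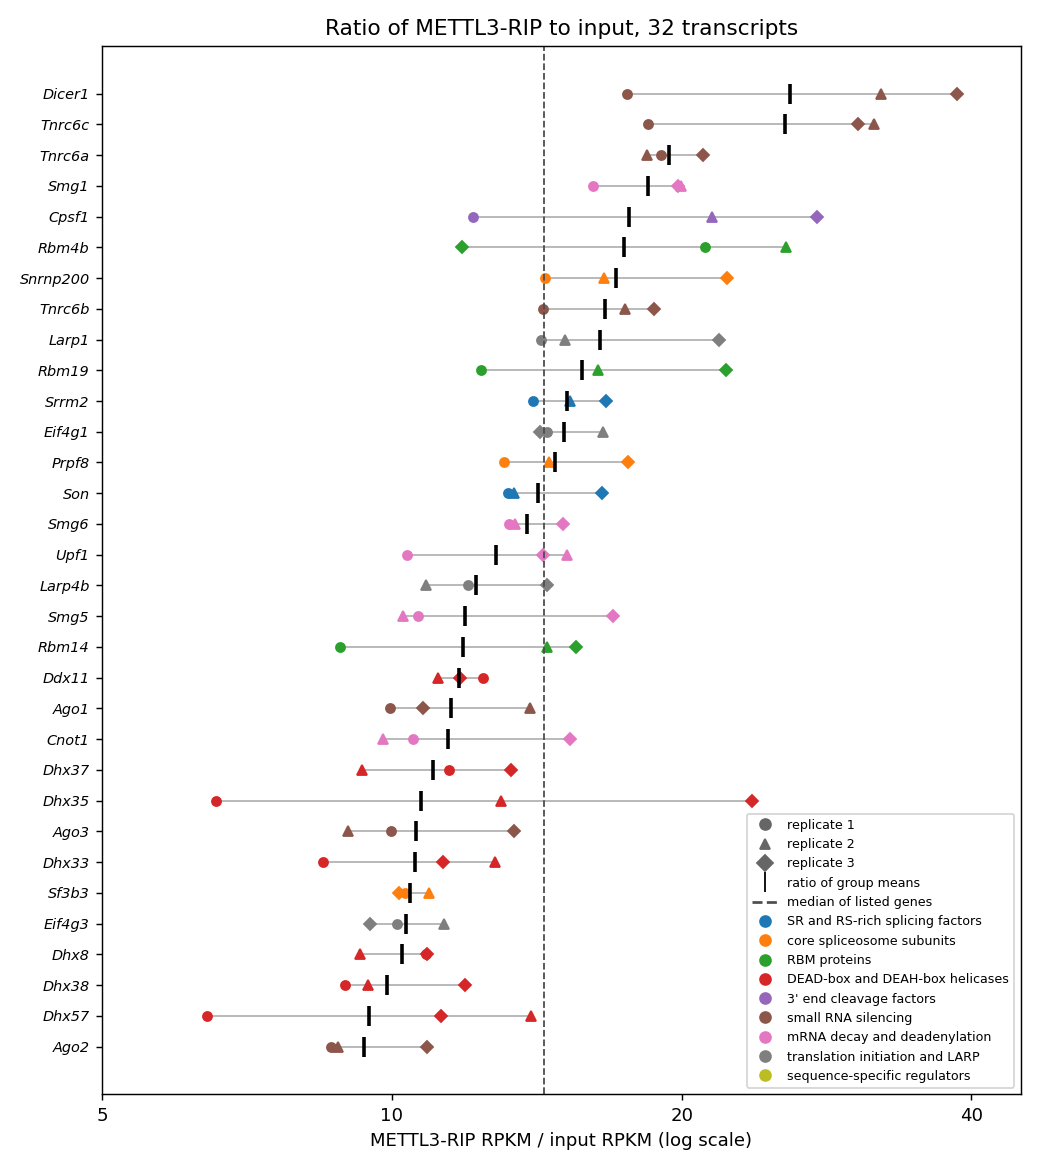
Ratio of METTL3-RIP RPKM to input RPKM (horizontal log axis) for 32 transcripts with input reads in every library, by replicate pair (circle, triangle and diamond for replicates 1, 2 and 3, coloured by role) and for the group means (vertical bar), with the median of listed genes, 14.4, as a dashed line. By their group means Dicer1 and the Tnrc6 genes lie right of the line, as do members of other roles, among them Smg1 (18.5), Cpsf1 (17.6) and Snrnp200 (17.1). The helicases and Argonautes lie left of it by their group means. Spreads were wide for Dhx35 (6.57 to 23.7) and Dicer1 (17.5 to 38.6).

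For cleavage at the 3′ end, Cpsf1 alone was listed among 12 annotated genes of the Cpsf, Cstf and Pcf11 names. It encodes the large subunit of the complex that recognises the polyadenylation signal. Cpsf1 had 8.65, 8.34 and 6.66 RPKM in METTL3-RIP and 0.713, 0.388 and 0.241 RPKM in input, from 49, 28 and 16 input reads, with a log2 fold change of 2.62 ± 0.15 (SE, limma adjusted p = 5.5e-07). Both groups were highest in replicate 1 and lowest in replicate 3, and the pair ratios were 12.1, 21.5 and 27.6. It was higher after median centring (0.86) and did not pass after quantile normalization (0.22, limma adjusted p = 0.41).

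Nonsense-mediated decay was represented by Upf1, its central helicase, by Smg1, the kinase that phosphorylates UPF1, and by Smg5 and Smg6, which are recruited to phosphorylated UPF1, with SMG6 as an endonuclease. Upf1 had 32.4, 31.7 and 25.0 RPKM in METTL3-RIP and 3.13, 2.09 and 1.74 RPKM in input, a log2 fold change of 3.22 ± 0.18 (SE, limma adjusted p = 5.2e-07). Smg1 had 17.4, 17.7 and 16.3 RPKM against 1.08, 0.884 and 0.822 RPKM, with 3.23 ± 0.10 (SE, limma adjusted p = 1.4e-07). Smg6 had 17.5, 17.8 and 15.5 RPKM against 1.32, 1.32 and 1.03 RPKM. The levels of Smg1 and Smg6 overlapped and lay below that of Upf1, whereas the ratio of mean RPKM was highest in Smg1, at 18.5, against 13.8 in Smg6 and 12.8 in Upf1. Smg5 had 7.23, 8.30 and 7.30 RPKM against 0.680, 0.809 and 0.430 RPKM, with a ratio of 11.9. Cnot1, the scaffold of the CCR4-NOT deadenylase, had 14.1, 12.5 and 13.1 RPKM against 1.34, 1.28 and 0.859 RPKM, with a log2 fold change of 2.73 ± 0.12 (SE, limma adjusted p = 1.7e-07). It was the only listed gene of 11 with a Cnot name, and neither Xrn gene is listed. In Smg1 8.87% and in Cnot1 7.67% of exonic 31-mers occur more than once in the genome, so part of their reads could be shared. All 5 were higher on the deposited scale and after median centring, and none passed after quantile normalization.

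Among translation initiation and LARP genes, the METTL3-RIP levels of Eif4g1 and Larp1 lay on either side of that of Son. Eif4g1, the scaffold that joins the cap-binding protein to the ribosome, had 55.8, 58.8 and 48.5 RPKM in METTL3-RIP and 3.85, 3.55 and 3.41 RPKM in input, a log2 fold change of 3.59 ± 0.12 (SE, limma adjusted p = 1.4e-07). Larp1, which binds mRNAs of the translation machinery, had 43.7, 41.7 and 41.4 RPKM against 3.06, 2.76 and 1.89 RPKM, with 3.61 ± 0.15 (SE, limma adjusted p = 1.5e-07). As 27.3% of its exonic 31-mers occur more than once in the genome, the highest share of any member, the values of Larp1 are uncertain. Eif4g3, a relative of Eif4g1, had 23.0, 28.0 and 20.9 RPKM against 2.27, 2.47 and 2.21 RPKM, with 2.90 ± 0.13 (SE, limma adjusted p = 1.9e-07). Ratios of mean RPKM were 15.1 for Eif4g1 and 10.4 for Eif4g3, with pair ratios of 14.2 to 16.6 and of 9.48 to 11.3 that did not overlap. Larp4b, a poly(A)-associated protein, had 9.95, 8.90 and 8.61 RPKM against 0.830, 0.820 and 0.594 RPKM. All 4 were higher on the deposited scale and after median centring, and after quantile normalization Eif4g3 was lower (-0.39) and the other 3 did not pass.

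Celf3, a sequence-specific splicing regulator known from neurons, had 0.389, 0.247 and 0.294 RPKM in METTL3-RIP, from 20, 13 and 19 reads, and 0 reads in each input library. With 3 reads per library as the limit of a count of 0, it was at least 8.65-fold higher, and the fitted log2 fold change was 0.39 ± 0.05 (SE, limma adjusted p = 0.00015). It was higher on the deposited scale, but its difference became negative after median centring (-1.37), and it did not pass after quantile normalization. Of the 165 listed genes without any input read, 2 were members, Celf3 and Ago4.

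By their medians over members, replicates of a group differed by little against the distance between groups. The listed genes were chosen for that distance, so the comparison does not measure replicate quality. The median RPKM over members was 9.46, 8.98 and 8.70 in METTL3-RIP replicates 1, 2 and 3 and 0.866, 0.815 and 0.648 in input replicates 1, 2 and 3. Input replicate 3 was the lowest input library for 29 of 36 members, against 44.5% of all listed genes, and METTL3-RIP replicate 3 was the lowest of its group for 24 of 36 members, against 59.3%. The median log2 ratio over members by pair was 3.58, 3.80 and 3.92. In the order of members by mean METTL3-RIP RPKM, 23 of 35 neighbouring pairs had overlapping replicate values. The 6 members with the most METTL3-RIP reads, Srrm2, Son, Smg1, Eif4g1, Snrnp200 and Larp1, held 51.9% of all METTL3-RIP reads on members.

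**Figure D3:**
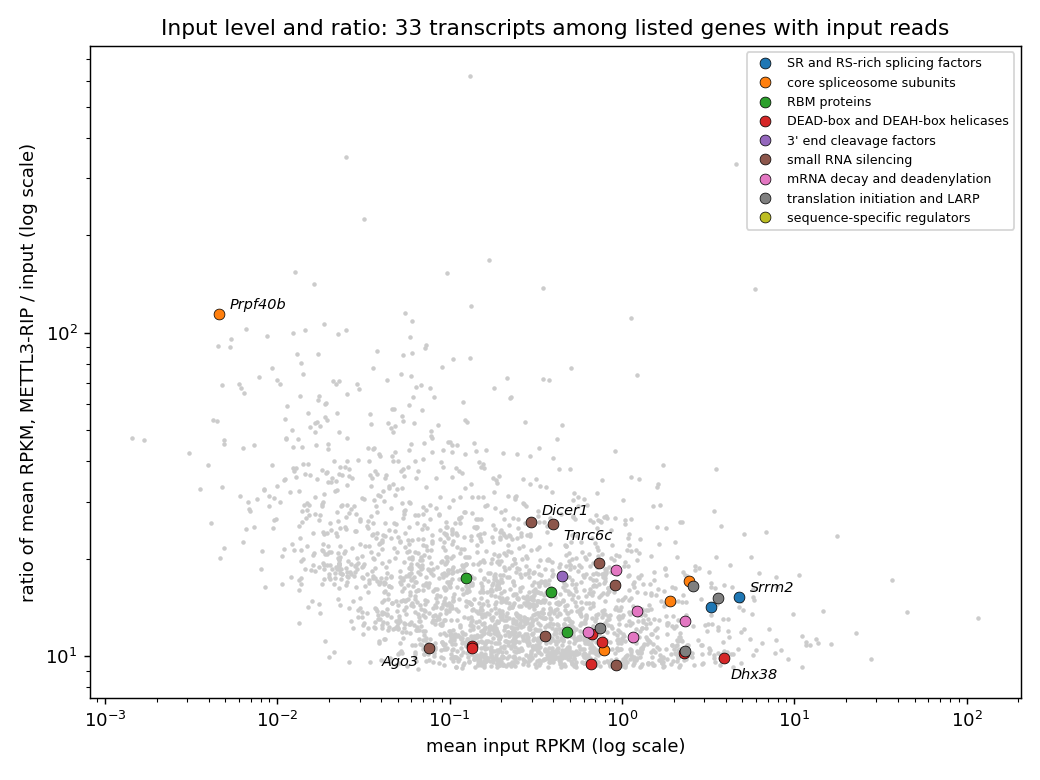
Mean input RPKM (horizontal log axis) and ratio of mean RPKM, METTL3-RIP over input (vertical log axis), for listed genes with input reads (grey) and 33 members among them (coloured by role). The lower edge of the cloud lies at a ratio of 9.14. All genes shown had been chosen as higher in METTL3-RIP, and how that choice sets the edge was not tested. Apart from Prpf40b, which rests on 1 input read, members lie between 9.35 and 25.9.

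By their medians, listed members were longer and had more exons than unlisted genes of the same names, though Rbm14 has 3 exons and Rbm4b 4. Their union of exons had a median length of 7640 nt, against 5367 nt for the 198 protein-coding genes of the same names that are not listed, 6851 nt for listed protein-coding genes and 3499 nt for all protein-coding genes. The principal transcript had a median of 23 exons, a coding sequence of 3612 nt and a longest internal exon of 340 nt, against 12 exons, 1612.5 nt and 224.5 nt in the unlisted genes of the same names and 16 exons, 2733 nt and 309.5 nt in listed protein-coding genes. Besides Srrm2, Son and the Tnrc6 genes, Smg6 and Rbm14 had long internal exons, of 1756 and 1465 nt. Of 234 protein-coding genes that fit the name rule, 36 (15.4%) were listed, against 1903 of 21894 protein-coding genes (8.69%). When protein-coding genes were split into 5 classes of equal size by exon length, 0% and 0% of the RNA factor genes in classes 1 and 2 were listed, 2.27% in class 3, 17.5% in class 4 and 25.3% in class 5. The values over all protein-coding genes were 1.10%, 1.83%, 5.09%, 12.0% and 23.4%. Classes 4 and 5 hold 11 and 24 of the 36 members, and in the longest class the share of RNA factor genes was close to that of all genes. Whether a gene was tested or expressed in these cells is not known from the table, and the part of length in its listing was not tested.

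**Figure D4:**
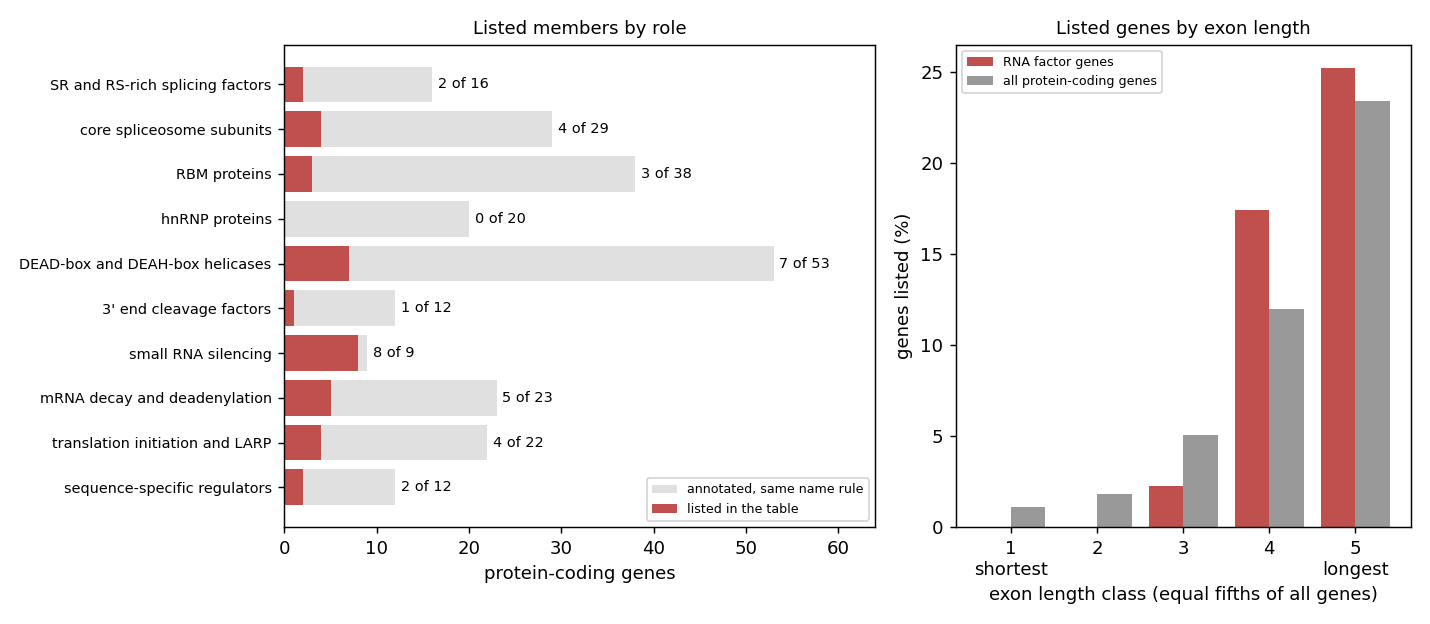
Left, protein-coding genes that fit the name rule in each role (horizontal axis, number of genes), with the listed ones in red, from 0 of 20 hnRNP genes to 8 of 9 small RNA silencing genes. Right, percentage of genes listed (vertical axis) in 5 exon length classes from shortest to longest, for the RNA factor genes (red) and all protein-coding genes (grey), which both rise to the longest class, at 25.3% and 23.4%.

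Other genes of the same processes, taken from a list of 132 annotated genes outside the name rule, are given for comparison. Of these, 23 (17.4%) were listed, against 8.69% of all protein-coding genes. All 23 were higher by limma on the deposited scale, as were 99.9% of listed genes, a direction fixed by the choice of listed genes. After median centring 14 were higher and 5 lower, against 39.4% and 42.2% of listed genes. Among those of the 23 with input reads, the ratio of mean RPKM had a median of 12.6 and ran from 9.30 to 20.6. The highest ratio was that of Gigyf1, a translational repressor of the 4EHP complex, with 12.6, 15.5 and 11.9 RPKM in METTL3-RIP and 0.763, 0.670 and 0.506 RPKM in input. Decapping and poly(A) removal had 6 of 21 genes listed, among them Dcp2, the decapping enzyme, at a mean of 5.63 RPKM in METTL3-RIP and a ratio of 13.9, and Pan2, a catalytic deadenylase, at a ratio of 19.8. The exosome and its cofactors had 3 of 18 listed, all of them cofactors: Skiv2l and Ttc37 of the Ski complex, at ratios of 19.0 and 11.7, and Zfc3h1, a nuclear exosome adaptor, at 10.7. In the small RNA pathway 2 of 7 were listed, Xpo5, which exports microRNA precursors, at a ratio of 9.58, and Mov10, a helicase that associates with Argonaute, at 18.8. Splicing factors and kinases outside the name rule had 5 of 43 listed, 3′ end processing 2 of 11, translation initiation 4 of 27 and the exon junction and decay list 1 of 5.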

How the data were processed

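METTL3-RIP and input libraries of splenic NK cells (3 each) were grouped by their titles. The authors mapped reads to GRCm38 with STAR 2.5.3a at default parameters, and the submitters' processing notes also name Trimmomatic 0.36, bedtools 2.25.0, deepTools 2.4.1 and HOMER 4.10. How reads were counted (tool, annotation, strand, reads or read pairs) is not given in the sources used here. The authors deposited 1 gene table with 6 columns of library values, whose unit is not stated. The deposited values were taken as RPKM, because with GENCODE M21 exon lengths 83.4% to 84.8% of the values above 0 in a library were whole numbers of reads within a tolerance of 0.02 reads. For 10 members (Dicer1, Cpsf1, Rbm4b, Tnrc6b, Srrm2, Eif4g1, Son, Ddx11, Dhx57 and Ago2) M21 lengths did not give whole reads, and the shortest length that did was taken, which makes their read numbers less certain. The remaining columns of the table hold a fold change and a p-value of the authors' own comparison, which every listed gene had passed, and they were not used. No column of per-library values was left unused (0).

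Values were transformed to log2(RPKM + 1) with no filter and compared by limma 3.58.1 in R 4.3.3 (lmFit, eBayes with trend), two-sided, with Benjamini-Hochberg adjustment over 2652 genes and a threshold of 0.05. An exact permutation test of 3 against 3 libraries cannot go below 0.1 and was not used. Input and immunoprecipitate are parts of a lysate by the methods and carry the same replicate numbers, and from this the numbers were taken as pairs, although deviations from the group means correlated weakly across genes (-0.019, -0.019 and 0.078 for the same numbers, -0.0066 on average for different ones). The limma fit was tested on simulated data in which most genes were unchanged. Nearly all listed genes are higher here, so that test does not cover the setting of these data. Members and gene lists were chosen with earlier results of these data known. Of the 36 members 35 are named, and 1, which enters all counts and medians, is not reported here. Full statistics are given for Cnot1, Dicer1, Son, Srrm2, Tnrc6a, Tnrc6b, Tnrc6c and Upf1, and in each role for the 2 highest METTL3-RIP levels and for the highest and lowest ratio of mean RPKM among members with at least 50 input reads. Counting intervals are at 95%, and a count of 0 was read as up to 3 reads. Intervals and limits cover counting error only. Coordinates, lengths, overlaps and sequences are from GENCODE M21 on GRCm38. Recurrence in the genome was counted over exonic 31-mers on either strand, and copies inside the same gene count as well. Alternatives were pseudocounts of 0.1 and 5, a mean RPKM of at least 1, median centring, quantile normalization, a replicate block, each library left out, and limma voom on recovered reads.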

Additional observations from a re-analysis of the deposited data

How the results depend on the processing

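All 36 members stayed past the threshold in the same direction with either other pseudocount, with the replicate block, with limma voom and with each library left out, as did the 30 members with a mean RPKM of at least 1. These counts are not particular to members, as the direction was fixed by the choice of listed genes. Of all listed genes 99.9% passed the main fit and 99.7% the fit with the block, and shares under the other settings named here are not given. With replicate number as a block, which uses the pairing, the median log2 fold change was 2.64 and no member's call changed. The median log2 fold change, 2.64, was 3.40 with a pseudocount of 0.1, 1.28 with a pseudocount of 5, 2.82 over members with a mean RPKM of at least 1 and 3.74 with limma voom, and from 2.57 to 2.71 with each library left out. Scaling decided most other values. With median centring the median was 0.88, against -0.036 over all listed genes. In that setting 15 members reached a log2 difference of 1, a count whose share over listed genes is not given. There 14 other RNA processing genes were higher, with Celf3 at -1.37 and Rbm4b at -0.26, both low in level. With quantile normalization the median was -0.095, against -0.11 over all listed genes. In that setting 1 member was higher and 0 members reached 1 (0 is also the count of other RNA processing genes higher by limma, with 4 lower). Of the 25 genes given with full statistics 12 turned negative: Ago2 -0.44, Celf3 -0.054, Cnot1 -0.24, Ddx11 -0.19, Dhx38 -0.45, Dhx57 -0.33, Dhx8 -0.38, Eif4g3 -0.39, Rbm14 -0.14, Sf3b3 -0.32, Srrm2 -0.024 and Upf1 -0.060. Both scalings remove by construction a shift that listed genes share, and the table holds no genes outside that choice. The median log2 ratio of mean RPKM, 3.65, ran from 3.50 to 3.92 with each library left out, highest without input replicate 1. It was -0.36 after each library was divided by its median RPKM, a setting whose value over listed genes is not given. Ratios of Dhx35 (4 to 18 input reads a library) and Prpf40b (1 input read in all) are limited by depth.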
